A study of Mus musculus with 2 samples.

Results

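Transcripts of 7 sterol synthesis genes (Hmgcs1, Idi1, Fdps, Fdft1, Sqle, Lss and Insig1) were examined in single cells sorted from the mouse retina. All 7 members of the list were among the 31053 genes of both count tables. They were chosen by name, with earlier results of these data known, and no threshold on their values was applied here. The data were 2 10x Chromium 3′ libraries of C57BL/6 retina, 1 labelled wildtype and 1 labelled Igfbpl-/1, here called the library labelled knockout; Igfbpl1 encodes a secreted relative of the insulin-like growth factor binding proteins. Both came from PBS-perfused animals whose retinal suspensions were sorted on CD45, a leukocyte surface protein that microglia carry too. The design text names 10 knockout and 10 sex-matched wildtype mice, 8 to 10 months old, and no label says which mice, or how many, a library pools, or which part of Igfbpl1 the allele lacks.

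Cells make cholesterol from acetyl-CoA through mevalonate. Hmgcs1 catalyses an early step on the way to mevalonate. Idi1 and Fdps build the isoprenoid farnesyl diphosphate, which Fdft1 joins into squalene. Sqle oxidises squalene, and Lss closes the ring to lanosterol, the first sterol. When membranes of the endoplasmic reticulum are rich in sterol, Insig1 holds the SCAP-SREBP complex there, and the enzymes and Insig1 itself are then transcribed less. In nervous tissue astrocytes and Müller glia, the radial glia of the retina, are regarded as main makers of sterol, while microglia and macrophages also take up cholesterol from debris and export it.

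Igfbpl1 itself went against the labels: the library labelled wildtype held 2 counts in 2 barcodes and the library labelled knockout 29 counts in 27 barcodes, of which 1 and 29 counts lay in the microglia gate described next. Each library is therefore named by its label, and every direction between them is one between labels. With 1 library per group, no test, p-value or standard error can be given. Intervals are exact, at 95%, and cover counting error only. The library labelled wildtype kept 2695 of 2735 barcodes (median 3910 unique molecular identifiers, UMIs) and the library labelled knockout 1761 of 1785 (median 4286 UMIs). The tables shared 1 barcode.

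Cells were gated by how many genes of a marker list had a UMI. At least 3 of 10 microglial markers and no other gate put 2435 cells of the library labelled wildtype and 1544 of the library labelled knockout in the microglia gate (median 3951 and 4310 UMIs). At least 3 of 9 markers put 43 and 31 cells in the border macrophage gate, and at least 4 of 10 put 51 and 35 cells in the Müller glia gate. The summed level of the Müller list was 12040.5 and 13460.5 counts per 1000000 UMIs (CPM) in the Müller gate, with all 10 markers counted in both libraries. The summed level of the border list was 3653 and 3905 CPM in the border gate. Mrc1, Pf4 and Ms4a7 were each in 93.0% or more of the cells of that gate in both libraries. No other border marker was in more than 16.3%, and Lyve1 and Clec10a were at 0 in the library labelled knockout. Both lists define their gates, so these levels are no check of them. The border gate also held a summed microglial marker level of 8210.1 and 7230.1 CPM, above that of its own list, with P2ry12 in 67.4% and 58.1% and Tmem119 in 58.1% and 51.6% of its cells. All 9 border markers were at 0 in the Müller gate of both libraries. In the microglia gate the summed border marker level was 61.9 CPM in the library labelled wildtype and 99.3 CPM in the library labelled knockout, and the summed Müller marker level was 87.2 and 78.1 CPM. The Müller gate held a summed microglial marker level of 2309 CPM in the library labelled wildtype and 117 CPM in the library labelled knockout, a difference that is taken up with the Müller values.

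RefSeq promoters on GRCm38.p6, the assembly of the mm10 build, were searched for 3 short motifs known from sterol genes, because the members are classed together by shared control: TCACNCCAC, a form of the sterol regulatory element that SREBP binds, CCAAT, the core of NF-Y sites, and GGGCGG, the core of Sp1 sites. Windows ran from 250 bases before to 50 after the start, both strands were read, and matches of different motifs did not overlap in the printed stretches. The table held promoters of 4 of the 7 members (Hmgcs1, Idi1, Lss and Insig1); those of Fdps, Fdft1 and Sqle were not used here. Below are the stretches upstream of the first annotated start for Hmgcs1, chr13:119690101-119690350, Lss, chr10:76531355-76531587, and Insig1, chr5:28071162-28071362, all on the plus strand, with each motif match in capitals.
Hmgcs1: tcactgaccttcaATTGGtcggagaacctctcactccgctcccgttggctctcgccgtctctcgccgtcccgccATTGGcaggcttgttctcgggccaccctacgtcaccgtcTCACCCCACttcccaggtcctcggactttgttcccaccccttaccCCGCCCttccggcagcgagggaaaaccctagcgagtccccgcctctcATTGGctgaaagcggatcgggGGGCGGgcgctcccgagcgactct
Lss: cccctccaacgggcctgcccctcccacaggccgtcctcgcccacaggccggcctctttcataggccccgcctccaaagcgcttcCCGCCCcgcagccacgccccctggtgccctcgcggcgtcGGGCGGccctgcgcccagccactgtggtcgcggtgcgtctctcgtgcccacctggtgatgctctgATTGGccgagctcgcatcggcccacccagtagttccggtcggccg
Insig1: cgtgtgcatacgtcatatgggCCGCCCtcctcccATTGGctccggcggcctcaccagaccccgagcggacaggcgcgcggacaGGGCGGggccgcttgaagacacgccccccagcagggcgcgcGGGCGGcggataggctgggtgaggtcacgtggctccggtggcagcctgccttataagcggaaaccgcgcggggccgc
The Hmgcs1 stretch holds the TCACNCCAC match, which begins 137 bases before the RefSeq start. It was the only match of that motif among the 4 members, and 408 of all 32851 promoters (1.24%) held one. CCAAT was found in 4 of 4 members and in 37.4% of all promoters, and GGGCGG in 4 of 4 and 35.7%. Of the 13 other sterol enzymes with a promoter in the table, 0 held TCACNCCAC, 12 held CCAAT and 12 held GGGCGG. A match of these letters is a description of the sequence and was not linked to the counts.

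The members lie on 6 chromosomes of GRCm38 in GENCODE M21, so none but the chromosome 13 pair, Hmgcs1 and Idi1, share one. Hmgcs1 (ENSMUSG00000093930) spans chr13:119690379-119708260 and Idi1 (ENSMUSG00000058258) chr13:8885501-8892451, both on the plus strand. Fdps (ENSMUSG00000059743) spans chr3:89093588-89101959 on the minus strand and overlaps the predicted gene Gm43738 on the same strand, so its counts are uncertain where counting split reads between them. Fdft1 (ENSMUSG00000021273), chr14:63145150-63179578 on the minus strand, overlaps the cathepsin gene Ctsb on the other strand, and the sources used here do not say whether strand was used in counting. Without strand, reads from the stretch that the 2 genes share could not be told apart. Ctsb stood at 2259 and 2284 CPM in the microglia gate, 2574 and 2709 in the border gate and 591 and 423 in the Müller gate. In the same order Fdft1 stood at 11.1 and 10.6, 0 and 5.18, and 73.9 and 20.4 CPM. The part of Ctsb in the Fdft1 counts was not tested. Sqle (ENSMUSG00000022351) spans chr15:59315077-59331192, Lss (ENSMUSG00000033105) chr10:76531588-76557138 and Insig1 (ENSMUSG00000045294) chr5:28071363-28078662, all on the plus strand. Hmgcs1 and Lss each overlap an antisense gene on the other strand, and Idi1 a gene model there that the annotation leaves unclassified.

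In the microglia gate all 7 members were lower in the library labelled knockout, at ratios from 0.588 to 0.950 of the library labelled wildtype. Summed over the members the level was 177 CPM (1767 counts, 169 to 185) in the library labelled wildtype and 148 CPM (1023 counts, 139 to 157) in the library labelled knockout, a ratio of 0.837 (0.774 to 0.904). A ratio below 1 was the more common direction of all genes too: it was found for 7 of 7 members and for 56.5% of the 9763 genes at 5 CPM or more in 1 library. At least 1.2-fold lower were 4 of 7 members, against a background of 14.6%. The interval lay below 1 for 3 of 7 members, against 15.6%. Members and further lists were chosen with earlier results of these data known, so their counts beside all genes are a description. The median log2 ratio of the members was -0.34, and that of the 9763 genes -0.034. Lss reached 5 CPM only in the library labelled wildtype, and so did Idi1 for 20 CPM, the level used for the lists of other genes, where 58.5% of 6220 genes had a ratio below 1. With libraries scaled by the median gene ratio instead of the total, 7 of 7 members were still below 1 (49.1% of all genes) and 4 of 7 at least 1.2-fold lower (11.8%).

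**Figure D1:**
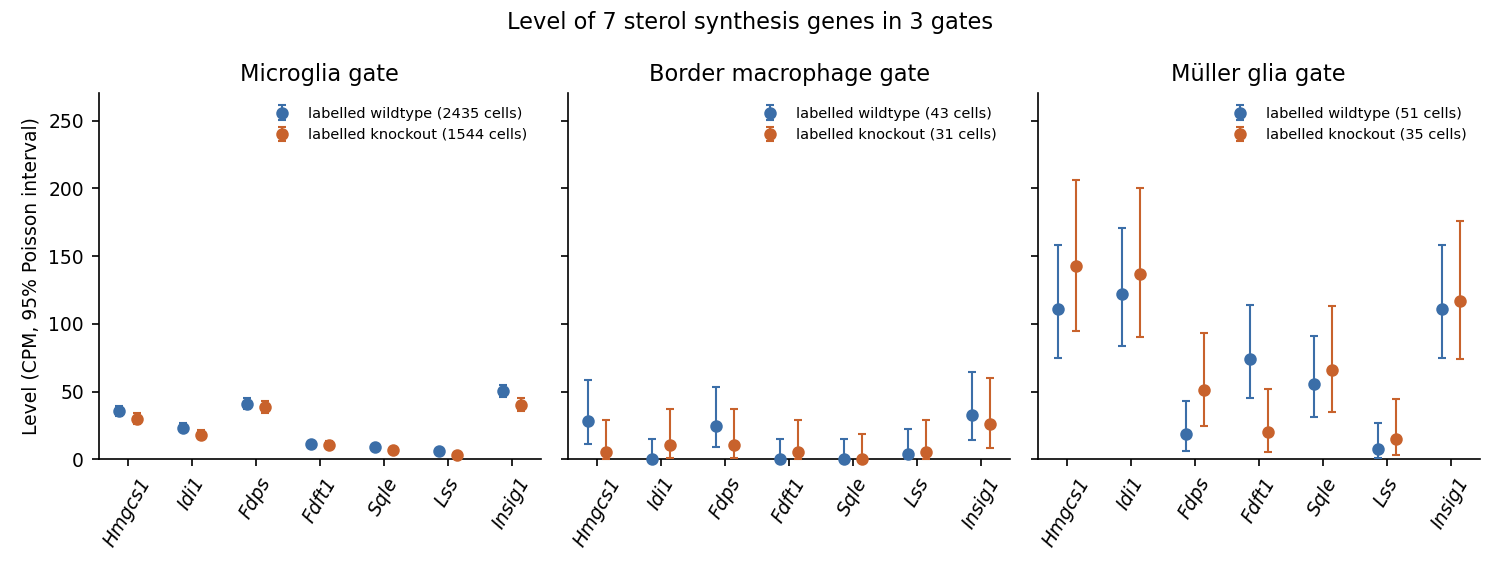
Level in CPM (y axis) of each of the 7 genes (x axis) in the microglia, border macrophage and Müller glia gates, for the library labelled wildtype (blue) and the library labelled knockout (orange); points are summed counts scaled to 1000000 UMIs and bars exact 95% Poisson intervals. In the microglia gate the orange point is below the blue point for all 7 genes. In the Müller gate Hmgcs1, Idi1 and Insig1 stand above 100 CPM in both libraries.

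Hmgcs1, an early enzyme, stood at 35.6 CPM (356 counts) in the library labelled wildtype and 30.1 CPM (208 counts) in the library labelled knockout. The ratio was 0.844, and its interval of 0.708 to 1.00 just reached equality. Idi1, the isomerase that makes dimethylallyl diphosphate, stood at 23.6 CPM (236 counts) and 18.4 CPM (127 counts). Its ratio of 0.778 had an interval of 0.622 to 0.969, below 1. Fdps, which makes farnesyl diphosphate, was nearly level, at 41.0 CPM (410 counts) and 38.6 CPM (267 counts), a ratio of 0.941 (0.804 to 1.10).

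Fdft1, squalene synthase, was the member nearest to equality, at 11.1 CPM (111 counts) and 10.6 CPM (73 counts), a ratio of 0.950 (0.697 to 1.29). Sqle, squalene epoxidase, stood at 8.90 CPM (89 counts) and 6.79 CPM (47 counts). Its ratio was 0.763 (0.524 to 1.10), so that the lower value was within counting error. Lss, lanosterol synthase, had the lowest ratio of the members, 0.588 (0.350 to 0.960), though not in the deepest cells, from 5.90 CPM (59 counts) and 3.47 CPM (24 counts). The 3 genes of this segment had the fewest counts, and their intervals were the widest.

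Insig1, the sterol sensor protein and the only member that is not an enzyme, stood at 50.6 CPM (506 counts) in the library labelled wildtype and 40.0 CPM (277 counts) in the library labelled knockout. Its ratio was 0.791 (0.681 to 0.918), which with Idi1 and Lss makes the 3 members whose interval excluded equality. Because depth per cell was higher in the library labelled knockout, cells were also thinned to 2000 UMIs each, which left out 441 and 292 microglia. Insig1 then had a UMI in 9.73% (8.46 to 11.1) of the cells labelled wildtype and 7.43% (6.04 to 9.02) of the cells labelled knockout, where the unthinned shares were 14.9% and 12.8%. For Hmgcs1 the thinned shares were 6.87% and 5.19% (unthinned 11.9% and 10.8%), and for Fdps 7.22% and 7.51% (unthinned 13.8% and 13.9%). At least 1 member was seen in 25.7% (23.8 to 27.7) and 23.1% (20.8 to 25.5) of thinned microglia (unthinned 38.9% and 35.6%). The shares thus followed the levels for Insig1 and Hmgcs1 and were side by side for Fdps. None of the gated cell types is known to lack these genes, so no share gives the background of free RNA.

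Other enzymes of the same pathway gave a like direction. Of the 13 listed, 7 reached 20 CPM in 1 library, 6 of these had a ratio below 1, 4 were at least 1.2-fold lower (10.4% of 6220 genes were) and 0 were at least 1.2-fold higher (6.80% were). Scaled by the median gene ratio, 478 genes were lower and 564 higher by that fold in place of 648 and 423, and the enzymes' counts were 3 lower and 0 higher. The 4 were Cyp51 (lanosterol demethylase), at 32.6 and 24.0 CPM and a ratio of 0.736 (0.607 to 0.890), Dhcr7 (a late sterol reductase), at 22.7 and 17.2 CPM and 0.758 (0.602 to 0.950), Sc5d (a sterol desaturase), at 28.3 and 22.4 CPM and 0.792 (0.646 to 0.966), and Msmo1 (sterol methyl oxidase), at 63.9 and 53.2 CPM and 0.832 (0.730 to 0.948). Of these 4, Dhcr7 reached 20 CPM only in the library labelled wildtype, where it was higher. Ebp, the sterol isomerase with the most counts, was nearly level at a ratio of 0.955 (0.864 to 1.05). The list's median log2 ratio was -0.26, against -0.038 over the 6220 genes. Under 20 CPM, Tm7sf2 (a sterol reductase) pointed the other way, with 22 and 28 counts and a ratio of 1.84 (1.01 to 3.37); it was singled out after its value was seen.

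**Figure D2:**
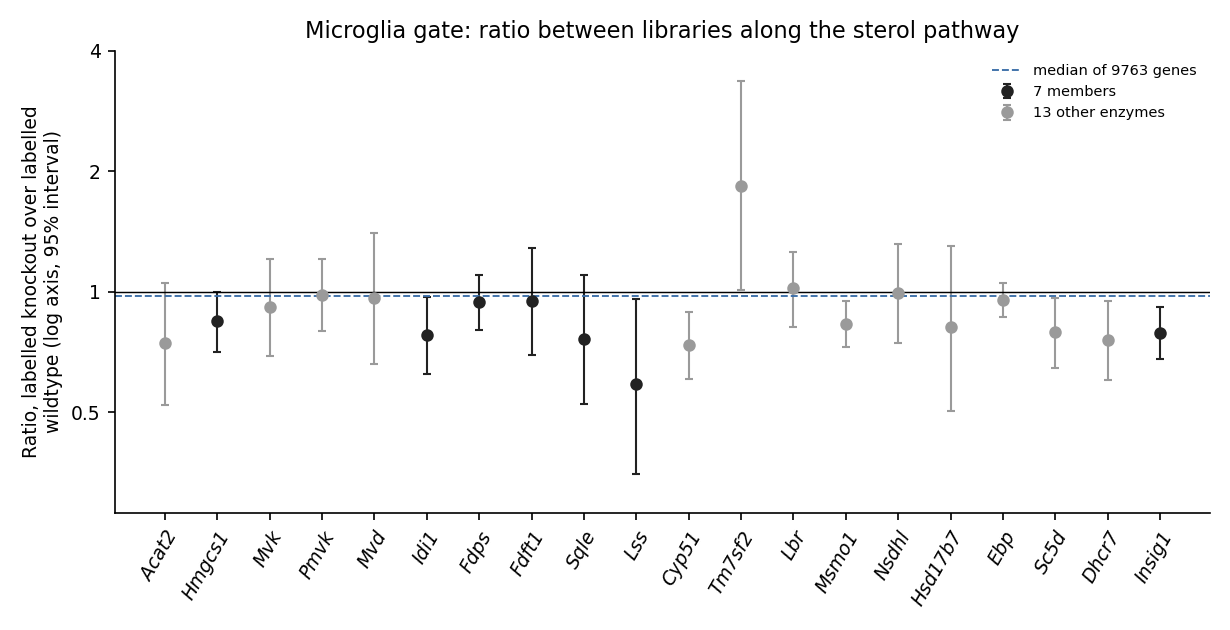
Ratio between libraries (labelled knockout over labelled wildtype) in the microglia gate (y axis, log scale) for the 7 members (black) and 13 other enzymes (grey), in pathway order from Acat2 to Dhcr7 with Insig1 last; bars are 95% intervals for counting error and the dashed line is the median ratio of 9763 genes. The 7 black points lie below 1, from 0.588 for Lss to 0.950 for Fdft1, and the bars of Idi1, Lss and Insig1 end below 1.

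The genes that control the pathway and take up sterol did not share that direction. Of 15 listed, 10 reached 20 CPM, 5 were above and 5 below 1, 0 were at least 1.2-fold lower and the median log2 ratio was 0.00. The 1 gene at least 1.2-fold higher was Mylip, a ubiquitin ligase that limits lipoprotein uptake, at 181 and 233 CPM and a ratio of 1.29, with an interval above 1. Npc2, which carries cholesterol out of lysosomes, had the most counts and was level at 0.989 (0.961 to 1.02). In the fatty acid arm 2 of 10 genes reached 20 CPM: Fads1, a fatty acid desaturase, at 1.46 (1.14 to 1.85), and Acly, which makes cytosolic acetyl-CoA, at 1.12 (0.989 to 1.27). Fads1, at 14.1 and 20.5 CPM, reached that level only in the library labelled knockout, where it was higher.

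Among the isoprenoid branch genes, 3 of 7 reached 20 CPM. Pggt1b, a subunit of geranylgeranyl transferase, had a ratio of 0.717 (0.578 to 0.886) and Ggps1, which makes geranylgeranyl diphosphate, 0.820 (0.695 to 0.965), while Fnta, a prenyl transferase subunit, was at 1.06, with an interval that held 1. Pggt1b, at 26.8 and 19.2 CPM, reached 20 CPM only in the library labelled wildtype, where it was higher. Cyp27a1, a sterol hydroxylase and the 1 of 5 oxysterol genes at that level, was at 0.913 (0.763 to 1.09). Of the 6 efflux genes 2 were at least 1.2-fold higher: Apoe, the main lipid carrier of glia, at 3249 and 7147 CPM and a ratio of 2.20 (2.17 to 2.23), and the exporter Abcg1 at 1.21 (0.977 to 1.50). Abcg1, at 19.6 and 23.7 CPM, reached 20 CPM only in the library labelled knockout, where it was higher.

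Microglia were then divided by marker counts into cells of a chemokine, interferon, Spp1 or proliferating state and cells of none; a cell can meet more than 1 state. The lower level of the members in the library labelled knockout was found in cells of no state. There the summed level was 164 CPM (991 counts in 1685 cells) in the library labelled wildtype and 127 CPM (550 counts in 1113 cells) in the library labelled knockout, a ratio of 0.771 (0.693 to 0.856). In chemokine cells, 610 and 302 cells, it was 195 and 193 CPM, a ratio of 0.990 (0.868 to 1.13). In interferon cells, 212 and 169 cells, it was 188 and 196 CPM, a ratio of 1.04 (0.854 to 1.28). The difference between states was not tested, as each rests on 1 library per label.

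Within the library labelled knockout, chemokine cells held 1.53 times (1.33 to 1.75) and interferon cells 1.55 times (1.30 to 1.83) the summed level of cells of no state. Within the library labelled wildtype the same ratios were 1.19 (1.07 to 1.31) and 1.14 (0.980 to 1.33). Cells that meet a state were deeper (median 4844 and 5679 UMIs in chemokine cells, against 3634 and 3890 in cells of none), and the part of depth in the result was not tested. Chemokine cells were 25.1% of the gate in the library labelled wildtype and 19.6% in the library labelled knockout.

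Single members followed the sum to different degrees. In cells of no state Sqle had 46 and 15 counts, a ratio of 0.453 (0.235 to 0.826), and Lss 40 and 10 counts, a ratio of 0.347 (0.155 to 0.706). In chemokine cells Sqle had 35 and 26 counts (1.30, 0.753 to 2.23) and Lss 15 and 13 (1.52, 0.666 to 3.42). Of the 26 Sqle counts 6 came from 1 cell, and without it the ratio was 1.01 (0.553 to 1.80). Insig1 was at 0.725 (0.588 to 0.891) in cells of no state and 1.00 (0.791 to 1.27) in chemokine cells, and Idi1 at 0.653 (0.476 to 0.887) and 0.988 (0.681 to 1.42). Fdps and Fdft1 were near 1 in both, with 0.944 and 0.992 in cells of no state and 0.913 and 1.07 in chemokine cells.

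Few cells stood in the remaining states. Proliferating cells had the highest summed level in each library, 249.6 CPM (190.0 to 322) in 36 cells labelled wildtype and 375 CPM (247 to 546) in 15 cells labelled knockout. Of the 27 counts behind the second value, 17 came from 1 cell of 16676 UMIs that also met the interferon and chemokine states. Without it the level was 181 CPM (86.7 to 333). The top proliferating cell labelled wildtype held 10 of 59 counts, and without it the level was 221 CPM (164 to 293). The cell of 16676 UMIs was also among the interferon and chemokine cells labelled knockout. Their levels without it were 181 and 186 CPM and their ratios 0.967 (0.786 to 1.19) and 0.952 (0.833 to 1.09). With the top cell of the state left out in each library, interferon cells were at 181 and 181 CPM and chemokine cells at 191 and 186 CPM. In proliferating cells labelled wildtype Fdps had 23 counts, 2.54 times (1.58 to 3.91) the level of cells of no state, and Fdft1 8 counts, 3.24 times (1.34 to 6.79). In Spp1 cells, 20 and 26 cells, the summed level was 119 and 173 CPM, a ratio of 1.45 (0.857 to 2.54). In the library labelled knockout 1 cell held 11 of the 57 counts. Without the top Spp1 cell of each library the Spp1 levels were 97.6 and 152 CPM.

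**Figure D3:**
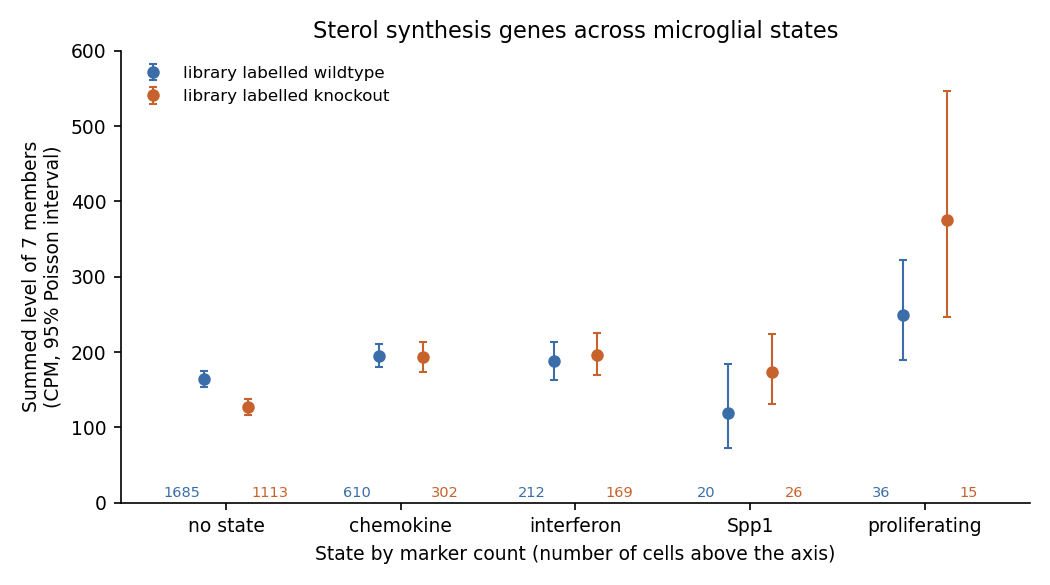
Summed level of the 7 members in CPM (y axis) in microglia of no state and of the chemokine, interferon, Spp1 and proliferating states (x axis), for the library labelled wildtype (blue) and the library labelled knockout (orange), with exact 95% Poisson intervals and the number of cells above the axis. The points stand apart in cells of no state, at 164 and 127 CPM, and nearly coincide in chemokine cells, at 195 and 193 CPM.

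When microglia were instead divided by depth, the summed ratio was 0.694 (0.549 to 0.871) in cells of up to 3340 UMIs, 0.902 (0.781 to 1.04) from there to 4808 UMIs and 0.827 (0.746 to 0.918) above. The sum was below 1 in the 3 ranges, and the interval of the middle range reached 1. Single members varied more. Hmgcs1, Idi1, Sqle and Insig1 were below 1 in each range. Of their intervals only that of Insig1 in the deepest cells (0.646 to 0.950) excluded 1. The share of all genes below 1 in each range was not taken, so these directions are a description. Fdft1 was at 1.08 (0.435 to 2.57) in the shallowest cells and Fdps at 1.17 (0.874 to 1.56) in the middle range. The lower Lss came from the shallower cells, with 14 and 1 counts in the shallowest (0.116, 0.00274 to 0.762) and 15 and 14 in the deepest (1.07, 0.478 to 2.37).

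Pairs of members were then counted by whether they were seen in the same cell. In microglia thinned to 2000 UMIs, pairs of members were seen together 170 times in the library labelled wildtype, where the product of their shares gives 84.5, a ratio of 2.01, and 48 times against 35.0 in the library labelled knockout, 1.37. Of the 21 pairs 18 and 15 were above the product. Fdps and Hmgcs1, for example, shared 23 cells labelled wildtype against 9.89 by the product. These pairs overlap in genes and cells. No like count was made for pairs of other genes. The excess is thus a description and is not read as particular to the members.

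Among 4826 genes seen in 5% to 95% of thinned microglia in both libraries, Msmo1 was the gene most like the members: whether it had a UMI correlated with the number of members that had one at Pearson r 0.16 over 1994 cells labelled wildtype and 0.17 over 1252 cells labelled knockout. Msmo1 is itself a sterol enzyme and was not a member. Next came the chaperone Hspa1a (0.10 and 0.11), Trp53i13 (0.07 and 0.07), the chaperone Hsph1 (0.10 and 0.07) and the pentose phosphate enzyme Tkt (0.11 and 0.06). All points share a library and a thinned depth, and correlations this weak in sparse counts are no finding. Cyp51 was below the 5% bound in the library labelled knockout and was not ranked; its r was 0.16 and 0.08.

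The Müller gate held the highest summed level of the 3 gates in each library, 499 CPM (135 counts, 418 to 590.3) in the library labelled wildtype and 549.8 CPM (108 counts, 451 to 664) in the library labelled knockout. This was 2.82 times (2.35 to 3.36) and 3.72 times (3.02 to 4.54) the level of the microglia gate of the same library. Idi1 stood at 122 and 137 CPM, 5.16 times (3.47 to 7.45) and 7.49 times (4.75 to 11.4) microglia. Sqle stood at 55.4 and 66.2 CPM, 6.22 times (3.34 to 10.8) and 9.74 times (4.83 to 18.3).

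Hmgcs1 in the Müller gate was at 111 and 143 CPM, 3.11 times (2.07 to 4.52) and 4.74 times (3.07 to 7.05) the microglia gate. Of its 28 counts in the library labelled knockout 12 lay in 1 cell, without which it was at 89.5 CPM and 2.98 times (1.67 to 4.95). Insig1 was at 111 and 117 CPM, 2.19 times (1.46 to 3.17) and 2.92 times (1.82 to 4.48). Fdft1 was at 73.9 CPM (20 counts) and 20.4 CPM (4 counts), 6.65 times (3.91 to 10.8) and 1.93 times (0.512 to 5.16), so that it stood above microglia beyond counting error in the library labelled wildtype alone. Fdps was at 18.5 CPM (5 counts) and 50.9 CPM (10 counts), with ratios of 0.450 (0.145 to 1.06) and 1.32 (0.625 to 2.46) whose intervals held 1 in both libraries. Lss had 2 and 3 counts, too few to place. For the 6 members other than Lss, which reached 20 CPM in 1 of the 2 gates, the interval lay above 1 for 5 in the library labelled wildtype and 4 in the library labelled knockout, where 37.3% and 35.7% of all genes compared did. Sqle and Fdft1 reached 20 CPM in the Müller gate alone in both libraries, and Idi1 did so in the library labelled knockout. They entered this count only through the gate where they were higher, so it is no check of their levels.

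**Figure D4:**
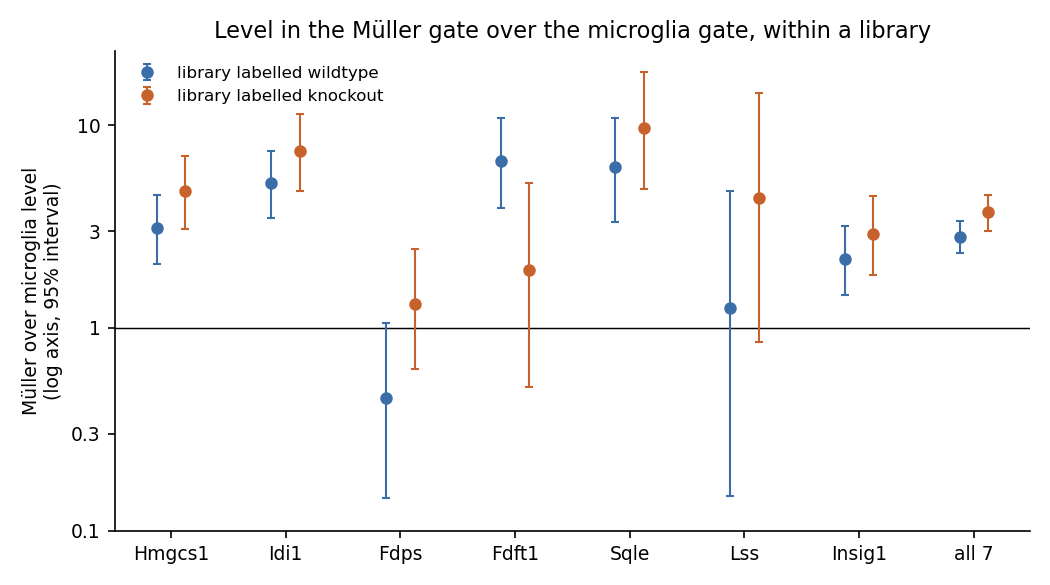
Level in the Müller glia gate divided by the level in the microglia gate of the same library (y axis, log scale) for each member and for their sum (x axis), with 95% intervals for counting error, in the library labelled wildtype (blue) and the library labelled knockout (orange). The sum stands at 2.82 and 3.72; Idi1 and Sqle lie above 5 in both libraries and the bars of Fdps cross 1 in both.

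Of the other sterol enzymes 11 and 9 of 13 had a ratio above 1 in the Müller gate. The share of all genes above 1 was not taken, so these counts are a description. The interval lay above 1 for 7 of 13 in the library labelled wildtype and 5 of 13 in the library labelled knockout. The shares over all genes, 37.3% and 35.7%, cover genes at 20 CPM or more in 1 of the gates. The 13 enzymes had no such minimum. Tm7sf2, Nsdhl and Hsd17b7 were below it in the library labelled knockout, so the shares are not of like sets. Msmo1 was 2.25 (1.59 to 3.12) and 3.16 times (2.14 to 4.51) the microglia gate. Ebp was below 1 in both libraries, at 0.404 (0.201 to 0.726) and 0.742 (0.404 to 1.25). It was the 1 enzyme whose interval lay below 1 in the library labelled wildtype. The median ratio of the 13 enzymes was 2.12 and 2.45, and that of the fatty acid arm 19.3 and 14.0 over the 10 and 9 genes compared. No median over all genes was taken between these gates, so the medians are a description.

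Between libraries the Müller gate gave no clear difference: the summed ratio was 1.10 (0.848 to 1.43) and the median log2 ratio 0.21 over 6 members, against 0.015 over all 8323 genes at 20 CPM or more. Of these 6, 1 had a ratio below 1, where 48.9% of those genes did. That member was Fdft1, with 73.9 CPM (20 counts) and 20.4 CPM (4 counts), a ratio of 0.276 (0.0685 to 0.823). In the library labelled wildtype 8 of the 51 Müller-gated cells also held 3 or more microglial markers, and in the library labelled knockout 1 of 35. Without these cells the levels were 539.6 CPM (443 to 652) and 476 CPM (379.9 to 588), a ratio of 0.881, on the other side of 1. The 1 cell left out of the library labelled knockout, of 17725 UMIs, held 23 of the 108 counts, 12 of them Hmgcs1; leaving out that cell alone gave a ratio of 0.954 (0.718 to 1.26).

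The border macrophage gate had the lowest summed level of the 3, 89.6 CPM (22 counts, 56.1 to 136) and 62.2 CPM (12 counts, 32.1 to 109). This was 0.507 times (0.317 to 0.770) and 0.420 times (0.216 to 0.737) the microglia gate of the same library. With stricter gates the order turned in the library labelled knockout, at 200.1 CPM in the border gate and 153 CPM in the microglia gate. Insig1 had 8 and 5 counts, 32.6 and 25.9 CPM, and Fdps 6 and 2 counts. Hmgcs1 had 7 and 1 counts, 28.5 and 5.18 CPM. The remaining members had 0 to 2 counts: Idi1 0 and 2, Fdft1 0 and 1, Lss 1 and 1, and Sqle 0 and 0. In the library labelled wildtype the floor of 3 counts stood at 12.2 CPM, 1.93-fold below the 23.6 CPM of Idi1 in microglia. The exact interval of the Idi1 ratio there, border gate over microglia gate, was 0 to 0.641, below 1. In the library labelled knockout the Idi1 ratio was 0.564 (0.0676 to 2.08), which does not separate the gates. Fdft1 and Sqle stood at 11.1 and 8.90 CPM in microglia labelled wildtype. Their intervals there, 0 to 1.38 and 0 to 1.72, held 1, so a difference was not detectable at this depth.

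Between libraries the summed ratio in the border gate was 0.694 (0.313 to 1.46), which does not separate them. Only Hmgcs1, Fdps and Insig1 had more than 3 counts in 1 library, and Hmgcs1 and Fdps had them only in the library labelled wildtype, so no direction is read from members in this gate. The direction of the sum rested on few counts: with cells of equal weight the ratio was 1.01, with a stricter gate 2.86 and after thinning to 2000 UMIs 3.30. For rods and bipolar cells, the neurons that entered the sort, the summed levels were 105 and 229 CPM (3 counts each) and 160.0 and 128 CPM (10 and 7 counts), with intervals that reach from below to above the microglial level.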

How the data were processed

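Single retinal cells were counted with the 10x Chromium 3′ kit, per the labels' protocols; Cell Ranger 3.1 and mm10 are named in the submitters' processing notes. The deposited values are raw UMI counts per gene and barcode, with no normalization by the authors. Barcodes needed 500 UMIs, 250 genes and at most 15% mitochondrial counts. No doublet caller was run; barcodes that met more than 1 gate other than microglia (5 and 1) were left out. Raw counts were summed per gate and library and scaled to 1000000 UMIs. Intervals are exact Poisson for sums, exact Clopper-Pearson for shares, and the exact split of counts for ratios. Both groups hold 1 library, so there was no test. A gene was called at 1.2-fold and 20 CPM; a 5 CPM background was added after the values were seen so that all 7 members are covered. Floors used 3 counts; no ratio is given where both counts are 3 or less. Members and lists were chosen with earlier results of these data known. From each further list the text names up to 4 genes farthest from a ratio of 1 among those called, and the gene with the most counts; other genes named were picked after their values were seen. The ratio step was tested on simulated Poisson counts, as the intervals assume, so counts that gather in single cells were not covered. In 2 lists, 3 genes are not reported here. Positions and promoters came from GENCODE M21 and RefSeq. Python 3.11.15, numpy 2.4.6, scipy 1.17.1 and pandas 2.3.3 were used.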

Additional observations from a re-analysis of the deposited data

Results flagged for a closer look

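In 4 settings the summed ratio of the members, library labelled knockout over library labelled wildtype, lay on the other side of 1 than in the cells it was set against. In the Müller gate it was 1.10, where the microglia gate had 0.837. In interferon cells it was 1.04, in Spp1 cells 1.45 and in proliferating cells 1.50, where microglia of no state had 0.771. None of these differences was tested, since each label has 1 library, and the intervals of all 4 held 1. These values rest in part on single cells of the library labelled knockout. Without 1 Müller cell of 17725 UMIs the Müller ratio was 0.954. Without 1 cell of 16676 UMIs, which met the interferon and proliferating states, the interferon ratio was 0.967. No cell labelled wildtype was left out for these ratios. With the cell of most member counts in each state left out of each library, interferon cells were at 181 and 181 CPM. Proliferating cells were then at 221 and 181 CPM and Spp1 cells at 97.6 and 152 CPM.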

How the results depend on the processing

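No paired analysis was possible because each group holds 1 library. The 16 alternatives run in the microglia gate kept the summed ratio between 0.771 and 0.859 and the median log2 ratio below 0; 6 or 7 members stayed below 1. The median log2 ratio was -0.63 after thinning to 1000 UMIs, where Fdps stood at 1.21, and the summed ratio 0.771 in cells of no state, an alternative added after the data were seen. The summed microglial level was 187 CPM in the library labelled wildtype after thinning to 1000 UMIs and 137 CPM in the library labelled knockout with cells of equal weight. It was 205 and 173 CPM over totals without mitochondrial and ribosomal protein genes, 168 and 131 CPM without chemokine cells, and 164 and 127 CPM in cells of no state. In the border gate the summed ratio reversed to 2.86 with stricter gates (200.1 CPM in the library labelled knockout), 3.30 after thinning to 2000 UMIs (36.6 and 121 CPM) and 1.01 with equal weight; without the top cell of each gene the library labelled knockout fell to 20.7 CPM there and to 412 CPM in the Müller gate. The summed ratio of the Müller gate was below 1 under 4 of 12 alternatives, down to 0.881. For isoprenoid genes the median log2 ratio was 0.09 at a minimum of 50 CPM; for efflux genes it was -0.04 after thinning to 1000 UMIs and -0.04 in cells of no state. All genes at least 1.2-fold lower and higher, 648 and 423, were 1062 and 647 after thinning to 2000 UMIs, 1218 and 900 after thinning to 1000, and 241 and 151 at 50 CPM, where fewer genes were tested, and 478 and 564 with median gene ratio scaling, which turned the excess of lower genes. Leaving out single cells was added after the data were seen. Apart from these the cause was not tested.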
